A study of Arabidopsis thaliana with 36 samples.

Results

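Cytosolic ribosomal protein genes were followed in shoots and roots of the opt3-2 mutant and of wild-type (WT, Col-0) Arabidopsis thaliana, all exposed to cadmium. The genes described are 44 of the 28775 in the deposited count table, found by their AGI locus identifiers. They encode 26 proteins, of which 18 belong to the large (60S) subunit with 31 genes and 8 to the small (40S) subunit with 13 genes. The set was chosen by a list of loci drawn up with earlier results of these data in view, and neither a contrast nor a threshold is recorded for that choice. Every value of the 44 genes is therefore given as a description, with no p-value, and counts of them past a threshold are set beside the share of all genes past it without being read further. A second list holds the other 187 cytosolic ribosomal protein genes of Arabidopsis, and their tests are reported. It too was drawn up with earlier results of these data known, so its tests are not independent of them.

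The 4 groups were opt3-2 shoots, WT shoots, opt3-2 roots and WT roots. Each had 3 biological replicates, and each replicate was 1 library summed over 3 technical columns. The suffixes of the column names differ in part between genotypes, and the labels do not say what they stand for. The opt3-2 plants carry a mutant allele of OPT3, an oligopeptide transporter known for iron movement in the phloem, and no other allele is named for either genotype. Plants of both genotypes grew for 11 days on plates and 22 days in hydroponic medium, and then spent 72 h in medium with 20 µM CdCl2. Cadmium is thus shared by all 4 groups, and untreated plants are not analysed here. RNA of 3 to 4 plants was pooled per isolation, and the labels do not say whether replicates were grown apart, so p-values measure only the spread between these samples.

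The cytosolic ribosome of plants translates the transcripts of nuclear genes. It joins ribosomal RNAs to a full set of proteins, and each protein is encoded by a small family of paralogous genes. Ribosomal protein genes are transcribed most where cells grow and divide, and in plants the TOR kinase pathway and short promoter elements named the telo-box and site II are known to act on them.

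OPT3 itself averaged 21.7 ± 3.59 CPM in opt3-2 shoots and 354 ± 33.8 CPM in WT shoots, and 5.90 ± 2.71 CPM in opt3-2 roots and 42.6 ± 4.87 CPM in WT roots (SD, n = 3 each). CPM is the count of a gene per 1000000 counts of its library, with the library total scaled by its TMM factor. The leaf genes RBCS1A, LHCB1.1 and LHCA1 were higher in every shoot library than in any root library, and the root genes PYK10, CASP1 and MYB36 were higher in every root library, as the tissue labels state. Library totals ran from 21262406 to 36484138 counts.

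In shoots, the transcripts of cytosolic ribosomal proteins were lower in opt3-2 than in WT as a group. The 44 genes held 0.466%, 0.446% and 0.420% of all counts in opt3-2 shoots, against 0.853%, 0.791% and 0.826% in WT shoots. The libraries of the genotypes did not overlap, and the means were 0.444 ± 0.0231% in opt3-2 and 0.823 ± 0.0308% in WT (SD, n = 3 each). All 44 genes were lower in opt3-2 by edgeR's quasi-likelihood test (Benjamini-Hochberg adjusted p below 0.05 over 21887 genes) and 0 were higher, where 22.6% of all genes tested were called lower and 21.3% higher. In all 44 the opt3-2 libraries also lay below every WT library, an order that 26.8% of all genes showed. The median log2 fold change of the 44 was -0.84, beside 0.00 over all genes.

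**Figure D1:**
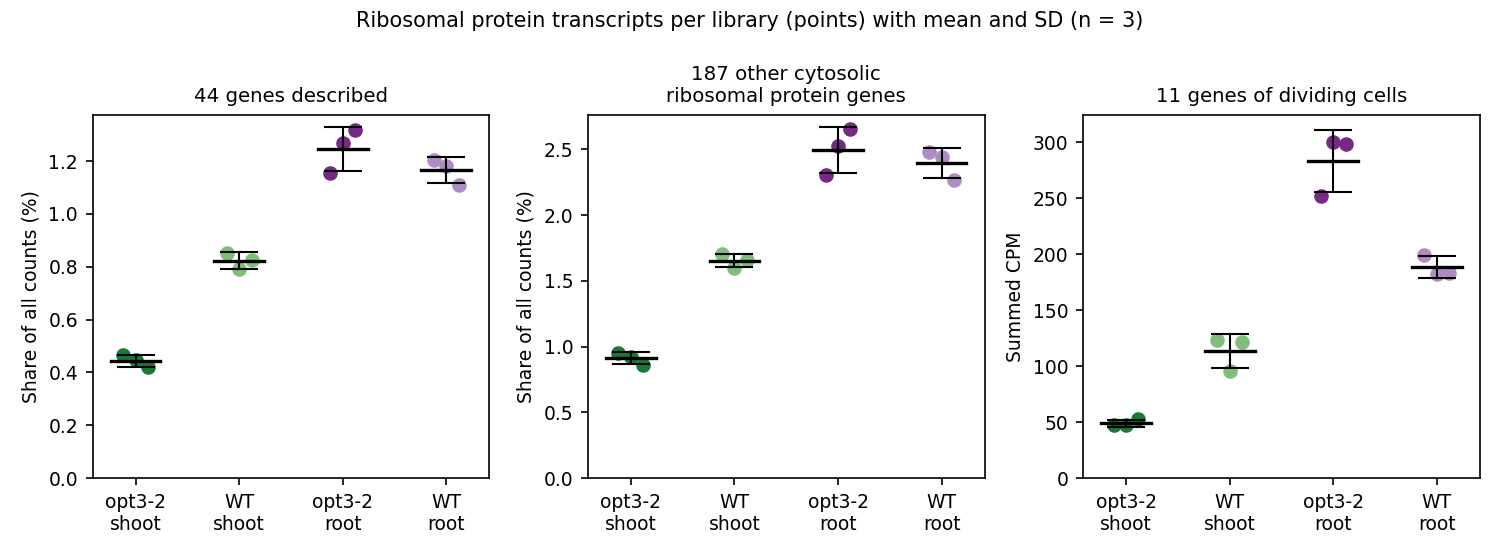
Share of all counts held by the 44 genes described (left) and by the 187 other cytosolic ribosomal protein genes (middle), in percent, and summed CPM of 11 genes of dividing cells (right), for opt3-2 shoots, WT shoots, opt3-2 roots and WT roots. Points are libraries and bars are mean and SD (n = 3); both ribosomal shares are lowest in opt3-2 shoots, at 0.444% and 0.912%.

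The 187 other cytosolic ribosomal protein genes are not among the 44, but their list was also drawn up with earlier results known. They include paralogues of the 44 and were measured in the same libraries, so their tests are not independent of the 44. Of the 187, 172 passed the filter on low counts and the other 15 were not tested. In opt3-2 shoots 168 of the 172 fell and 0 rose, with a median log2 fold change of -0.81 and a range from -1.62 to 0.34. AT2G27710, which encodes the acidic stalk protein RPP2, fell by 1.24 on the log2 scale (SE 0.057, adjusted p = 1.13e-07, edgeR, lower in 3 of 3 libraries). AT3G07110 for RPL13a fell by 1.17 (SE 0.069, adjusted p = 6.32e-07, edgeR). Of the 4 genes that were not called, 3 were AT5G39850 for RPS9 (log2 fold change -0.06), AT3G09680 for RPS23 (-0.88 with an SE of 0.665) and AT5G24510 for RPP1 (0.34), and they were named for this after their values were seen. Together, the 231 listed genes held 1.36 ± 0.0692% of counts in opt3-2 shoots and 2.48 ± 0.0825% in WT shoots (SD, n = 3 each).

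Genes of both subunits were lower in opt3-2 shoots. The 60S genes had a median log2 fold change of -0.87 over the 31 described and -0.83 over 98 others tested, and 96 of those 98 fell. The 40S genes had a median of -0.80 over the 13 described and -0.75 over 74 others tested, of which 72 fell.

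Among the 60S proteins, RPL5 binds the 5S ribosomal RNA and is carried with it into the nascent large subunit. RPL5A (AT3G25520) had 169, 161 and 157 CPM in opt3-2 shoots, against 347, 289.9 and 328 CPM in WT shoots. RPL5B (AT5G39740) had 159.5, 149.7 and 142 CPM in opt3-2 shoots, against 311, 266 and 296 CPM in WT shoots. Neither pair of groups overlapped, and the log2 fold changes were -0.98 ± 0.079 for RPL5A and -0.95 ± 0.074 for RPL5B (SE).

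RPL24 sits on the face of the large subunit that meets the small one, and its B gene is known in Arabidopsis for reinitiation of translation after upstream open reading frames. RPL24A (AT2G36620) had 35.7, 32.8 and 38.1 CPM in opt3-2 shoots, against 85.7, 73.6 and 81.1 CPM in WT shoots, a log2 fold change of -1.17 ± 0.076. RPL24B (AT3G53020) had 106, 112 and 101 CPM in opt3-2 shoots, against 177.5, 163 and 165 CPM in WT shoots, a log2 fold change of -0.66 ± 0.062. RPL24A thus had the lowest log2 fold change of the 60S genes described.

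RPL9 is a protein of the large subunit whose C gene is known in Arabidopsis from leaf polarity mutants. RPL9B (AT1G33120) and RPL9C (AT1G33140) share 99.1% of their coding bases and encode the same protein, so their counts are uncertain as single genes and are summed here. The sum was 268, 262 and 263.5 CPM in opt3-2 shoots, against 473, 449 and 435 CPM in WT shoots. RPL9D (AT4G10450) had 23.1, 22.2 and 21.4 CPM in opt3-2 shoots, against 43.8, 42.0 and 43.0 CPM in WT shoots. The groups did not overlap for the sum or for RPL9D.

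The log2 fold change nearest to 0 among the 44 was that of RPL7D (AT3G13580), with 86.8, 91.5 and 81.8 CPM in opt3-2 shoots and 108, 111 and 106 CPM in WT shoots, at -0.32 ± 0.053. Its paralogue RPL7C (AT2G44120) stood at -1.03 ± 0.060 in the same libraries. RPP0B (AT3G09200) encodes the base of the acidic stalk that recruits elongation factors. It had 247, 257 and 239.8 CPM in opt3-2 shoots, against 513, 444 and 488 CPM in WT shoots, a log2 fold change of -0.96 ± 0.081.

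Among the 40S proteins, RPS6 is the substrate of S6 kinase downstream of TOR. RPS6A (AT4G31700) had 67.65, 64.0 and 73.3 CPM in opt3-2 shoots, against 179, 133 and 175 CPM in WT shoots, a log2 fold change of -1.25 ± 0.107. RPS6B (AT5G10360) had 179, 159 and 152 CPM in opt3-2 shoots, against 292, 284 and 274 CPM in WT shoots, a log2 fold change of -0.80 ± 0.068. The groups did not overlap for either gene.

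RPS18 has 3 genes that encode the same protein, and the A gene is known in Arabidopsis for its pointed first leaf mutant. RPS18A (AT1G22780) had 47.6, 51.1 and 45.9 CPM in opt3-2 shoots, against 90.65, 76.7 and 89.1 CPM in WT shoots. RPS18B (AT1G34030) had 51.95, 46.7 and 42.15 CPM in opt3-2 shoots, against 88.4, 75.6 and 85.4 CPM in WT shoots. The log2 fold changes of A and B were -0.83 ± 0.077 and -0.82 ± 0.085. RPS18C (AT4G09800) had 132.5, 132 and 122 CPM in opt3-2 shoots, against 178, 179.6 and 172 CPM in WT shoots, a log2 fold change of -0.45 ± 0.058. RPS21C (AT5G27700) also lay near the upper end, with 88.0, 67.9 and 67.3 CPM in opt3-2 shoots, against 108, 118 and 94.7 CPM in WT shoots, a log2 fold change of -0.52 ± 0.104.

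**Figure D2:**
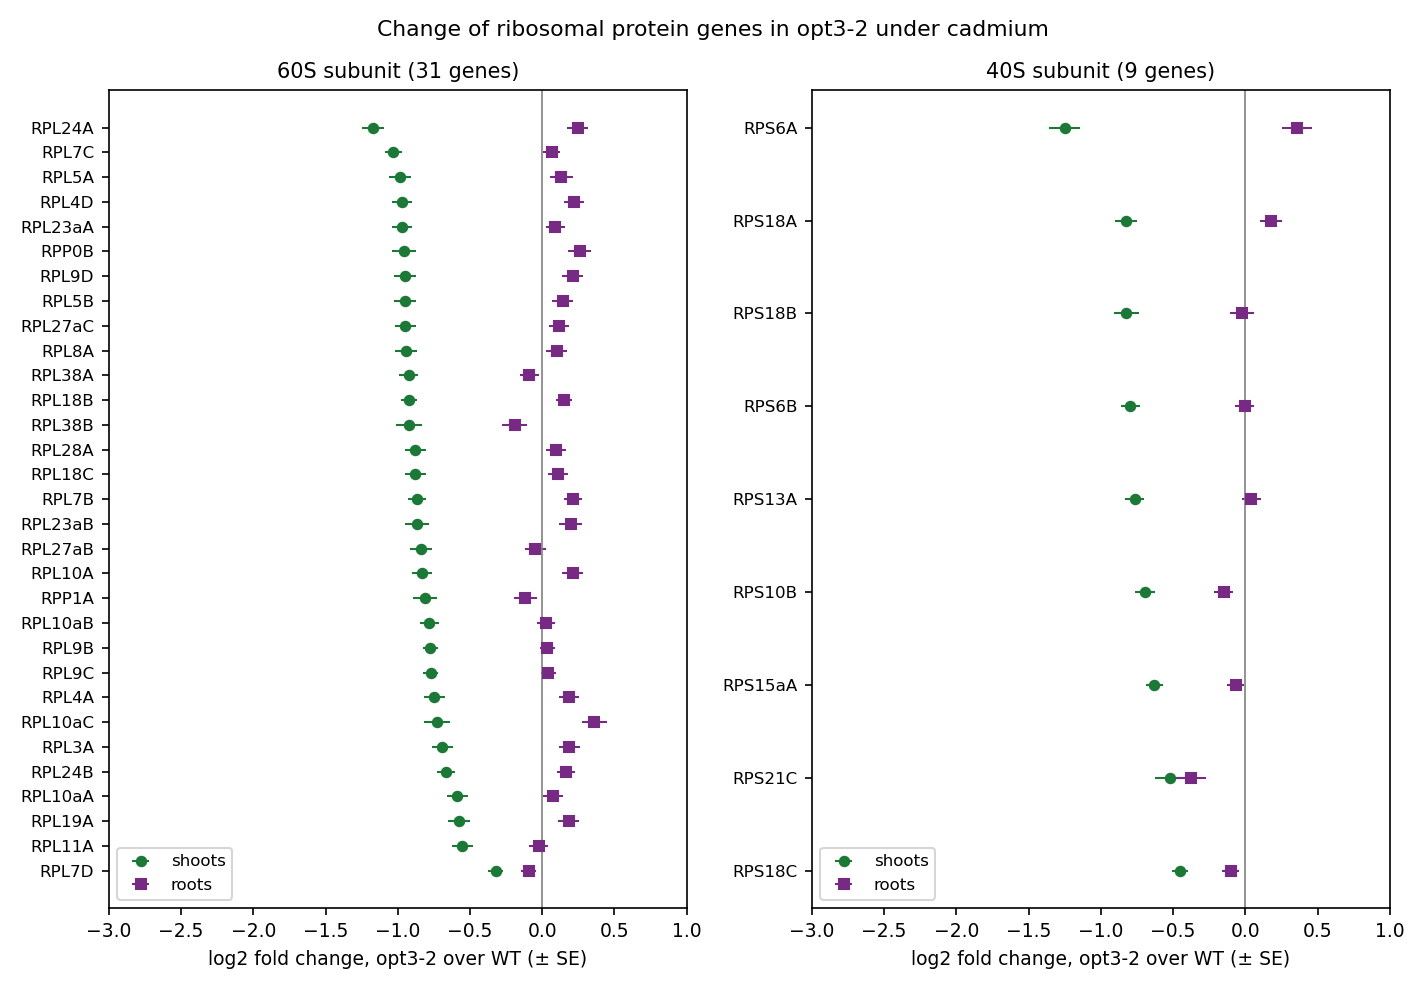
Log2 fold change of opt3-2 over WT with its standard error for 40 of the 44 genes, 31 of the 60S subunit (left) and 9 of the 40S subunit (right; the 4 others are not reported here), in shoots (circles) and roots (squares), ordered by the value in shoots. The circles drawn lie left of 0, between -1.25 and -0.32, and the squares lie between -0.38 and 0.36.

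Site II is a hexamer with the letters TGGGCC or TGGGCT, and the telo-box has the letters AAACCCTA. They were searched on both strands, overlapping matches included, together with the TATA box TATAAA. The window was the 250 bases before the annotated start of each gene (RefSeq, TAIR10.1), taken at its outer boundary. Many windows overlap an exon of another gene and were counted too. Among them are those of RPL4D, RPL5A, RPL10A, RPL11A, RPL24B, RPL27aB, RPS13A and RPS18A. A site II match was in the promoters of 28 of the 44 genes (63.6%), 69.5% of the 187 others, 32.3% of 31 genes for plastid ribosomal proteins and 19.2% of 27443 protein-coding genes. The telo-box was in 15.9% of the 44, 23.5% of the 187, 9.68% of the plastid set and 4.49% of all. The TATA box was in 54.5%, 48.1%, 54.8% and 47.3% of the same sets. Site II matches in the 44 promoters began at a median of -57.5 bases from the start, telo-boxes at -29 and TATA boxes at -109.5.

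The promoters of 5 of the genes named above, none overlapping an exon of another gene, are printed as examples. They run 5′ to 3′ in the direction of transcription, with site II and telo-box letters in capitals. RPS6A at chr4:15347805-15348054 (minus strand) and RPS6B at chr5:3260255-3260504 (minus strand) are the pair at -1.25 and -0.80 in shoots. RPL5B at chr5:15903029-15903278 (plus strand) is a gene of the 5S particle. RPS21C at chr5:9808514-9808763 (minus strand) holds both elements. RPL24A at chr2:15352014-15352263 (minus strand) holds neither.
RPS6A promoter: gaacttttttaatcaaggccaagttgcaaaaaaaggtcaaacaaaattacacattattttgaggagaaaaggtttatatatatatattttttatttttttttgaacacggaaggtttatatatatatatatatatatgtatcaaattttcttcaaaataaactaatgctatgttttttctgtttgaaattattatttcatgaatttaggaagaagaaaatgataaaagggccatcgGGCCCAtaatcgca
RPS6B promoter: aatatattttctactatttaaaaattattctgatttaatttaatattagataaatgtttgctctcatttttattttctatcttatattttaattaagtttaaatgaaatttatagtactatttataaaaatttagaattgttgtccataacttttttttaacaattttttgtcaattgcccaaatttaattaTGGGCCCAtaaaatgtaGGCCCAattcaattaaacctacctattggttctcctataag
RPL5B promoter: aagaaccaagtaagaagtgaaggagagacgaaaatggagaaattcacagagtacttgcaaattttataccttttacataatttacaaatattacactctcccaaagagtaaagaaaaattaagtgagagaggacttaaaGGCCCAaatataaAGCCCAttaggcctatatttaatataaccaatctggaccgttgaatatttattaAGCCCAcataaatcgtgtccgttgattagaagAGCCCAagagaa
RPS21C promoter: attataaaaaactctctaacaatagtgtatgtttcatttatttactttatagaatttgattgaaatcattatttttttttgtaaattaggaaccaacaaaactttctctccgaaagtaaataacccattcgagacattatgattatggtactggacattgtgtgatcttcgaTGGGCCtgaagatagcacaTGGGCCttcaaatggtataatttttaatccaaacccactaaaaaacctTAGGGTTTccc
RPL24A promoter: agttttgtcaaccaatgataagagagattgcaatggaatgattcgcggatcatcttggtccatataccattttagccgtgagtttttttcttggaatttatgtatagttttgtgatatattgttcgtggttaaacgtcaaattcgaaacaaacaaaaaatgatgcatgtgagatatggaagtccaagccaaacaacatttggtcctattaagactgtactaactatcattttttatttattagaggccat
RPS6A has 1 site II match and RPS6B has 3, of which a pair overlap on opposite strands. RPL24A, with no match in this window, had a log2 fold change of -1.17 in shoots, and RPL5B, with 4 site II matches, one of -0.95. Over the 44 genes the median log2 fold change in shoots was -0.83 for the 28 with site II and -0.87 for the 16 without. Over the 172 others tested it was -0.82 for 120 with site II and -0.73 for 52 without, and -0.84 for 34 with a telo-box and -0.79 for 138 without. These letters are a description of the windows and not of factor binding.

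**Figure D3:**
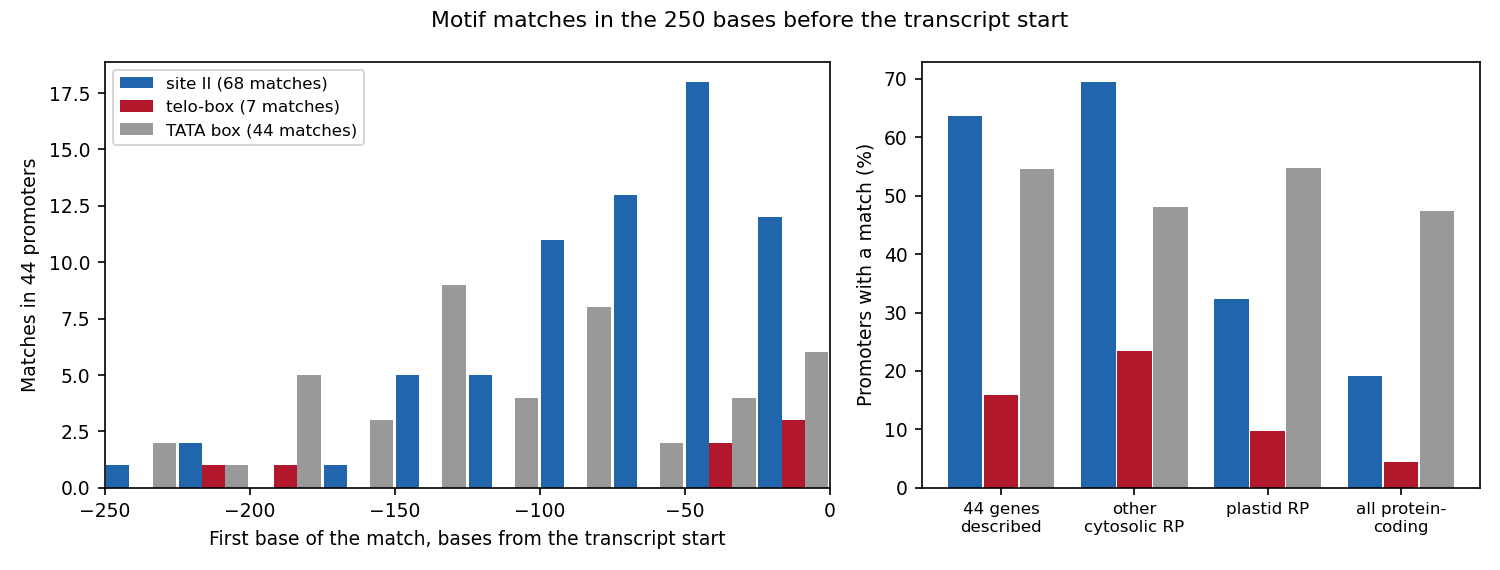
Left, number of site II, telo-box and TATA box matches in the 44 promoters by the position of their first base. Positions are in bases from the annotated gene start, which the axis labels transcript start. Right, percent of promoters with a match in the 44 genes, the 187 other cytosolic ribosomal protein (RP) genes, 31 plastid ones and all protein-coding genes. Site II reaches 63.6% and 69.5% in the cytosolic sets, against 19.2% of all genes.

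In roots, these genes lay near their WT level. The 44 genes held 1.15%, 1.27% and 1.32% of counts in opt3-2 roots, against 1.20%, 1.18% and 1.11% in WT roots. These ranges overlapped, and the means were 1.25 ± 0.0835% in opt3-2 roots and 1.17 ± 0.0499% in WT roots (SD, n = 3 each). By edgeR 9 of the 44 were called higher in opt3-2 and 1 lower, where 17.5% of all genes were called higher and 21.5% lower. Groups that did not overlap were found in 19 of the 44 on the higher side, beside 24.1% of all genes, and in 4 on the lower side, beside 29% of all genes. The median log2 fold change of the 44 was 0.10. The count of 9 rests on single libraries: it was 3 without replicate 2 and 1 without replicate 3 of opt3-2 roots, 3 without replicate 2 and 1 without replicate 3 of WT roots, and 14 without replicate 1 of opt3-2 roots.

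Of the 172 other cytosolic ribosomal protein genes tested, 26 rose and 20 fell in opt3-2 roots, and the median log2 fold change was 0.05. With 1 library left out at a time, from 5 to 32 rose and from 7 to 21 fell. AT1G66580, an RPL10 gene that RefSeq calls senescence associated gene 24, rose by 0.84 (SE 0.075, adjusted p = 8e-06, edgeR). It had 360.5, 350.3 and 402 CPM in opt3-2 roots, against 219, 207 and 193 CPM in WT roots, and the groups did not overlap. AT1G18540 for RPL6 also rose (0.31 ± 0.069, adjusted p = 0.00419, edgeR). Among those that fell were AT4G31985 for RPL39 (-0.46, adjusted p = 0.0015, edgeR) and AT3G08520 for RPL41 (-0.46, adjusted p = 0.00334, edgeR). The 231 genes together held 3.74 ± 0.259% of counts in opt3-2 roots and 3.56 ± 0.162% in WT roots (SD, n = 3 each).

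The widest values in roots among the 44 genes were small beside those in shoots. RPL10aC (AT5G22440), a gene of the L1 stalk protein, had 101, 108 and 113 CPM in opt3-2 roots, against 91.3, 82.9 and 76.0 CPM in WT roots, a log2 fold change of 0.36 ± 0.086. RPS6A had 300.3, 317 and 323 CPM in opt3-2 roots, against 262, 248 and 224.5 CPM in WT roots, a log2 fold change of 0.36 ± 0.104. The opt3-2 libraries lay above the WT libraries for both genes, and also for RPP0B, with 501, 557 and 575 CPM in opt3-2 roots, against 490.2, 448.5 and 426.5 CPM in WT roots.

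On the lower side, RPS21C had 95.4, 91.9 and 101 CPM in opt3-2 roots, against 123, 124 and 128 CPM in WT roots, with no overlap and a log2 fold change of -0.38 ± 0.103. RPL38B (AT3G59540) had 89.0, 95.2 and 103 CPM in opt3-2 roots, against 116, 111 and 101 CPM in WT roots. RPS10B (AT5G41520) had 191, 200.5 and 204 CPM in opt3-2 roots, against 213, 224 and 223 CPM in WT roots. RPL38B overlapped between genotypes, and RPS10B did not but was not called, with a log2 fold change of -0.15 ± 0.067.

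In roots each RPL5 gene differed less between genotypes than in shoots. RPL5A had 419, 469 and 482.5 CPM in opt3-2 roots, against 432, 409.8 and 407 CPM in WT roots. RPL5B had 335.1, 365 and 374 CPM in opt3-2 roots, against 335.0, 327 and 311 CPM in WT roots. Their log2 fold changes were 0.13 ± 0.078 and 0.14 ± 0.073, and neither gene was called. RPL5A overlapped between genotypes, and the lowest opt3-2 library of RPL5B lay just above its highest WT library.

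Whether opt3-2 differed from WT in roots as it did in shoots was tested gene by gene with the interaction term, the log2 difference in roots minus that in shoots. For the 44 genes, chosen with earlier results known, its values are a description. The term was called above 0 in 43 of them and below 0 in 0, where 24.2% of all genes were called above and 24% below. Its median over the 44 was 0.91. The gene that was not called was RPS21C, at 0.14 ± 0.146, whose level was lower in opt3-2 in both tissues. Of the 172 other genes tested, 162 were called above 0 and 2 below, with a median of 0.84. Of the 2 below, 1 was AT5G24510 for RPP1 at -1.12 (SE 0.414, adjusted p = 0.0413, edgeR). This gene was a minor one, with 0.56% of the summed RPP1 level in opt3-2 shoots and 0.25% in WT shoots. In roots it held 0.26% in opt3-2 and 0.44% in WT.

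Between tissues, these transcripts were higher in roots by more in opt3-2 than in WT, a difference that is the same interaction term read across tissues. By edgeR all 44 were called higher in opt3-2 roots than in opt3-2 shoots and 0 lower, where 43.6% of all genes were called higher and 41% lower, with a median log2 difference of 1.103. Of the 172 others, 165 were higher in opt3-2 roots and 2 lower, with a median of 1.04. In WT 23 of the 44 were called higher in roots than in shoots and 3 lower, where 39.5% of all genes were called higher and 38.6% lower, with a median of 0.18. Of the 172 others, 97 were higher in WT roots and 8 lower, with a median of 0.23. The 2 tissue comparisons share no library with each other, but each shares libraries with the genotype comparisons above. They depend on the scaling. With library sizes alone the median of all genes moved to 0.48 in opt3-2 and 0.37 in WT. All 44 were then called higher in WT roots, as were 12232 of the 21887 genes tested, beside 8636 in the fit reported.

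Some of the 44 genes are not reported singly here, so the order of the highest differences is not given. RPS6A had a root minus shoot log2 difference of 2.20 ± 0.110 in opt3-2 and 0.59 ± 0.105 in WT. The lowest in opt3-2 were RPL7D, at 0.28 ± 0.053, and RPS18C, at 0.36 ± 0.058. RPL10aA (AT1G08360) had 219.9, 206 and 198 CPM in WT roots, against 229.9, 232 and 237 CPM in WT shoots. The sum of RPL9B and RPL9C was 410.3, 412 and 397 CPM in WT roots, against 473, 449 and 435 CPM in WT shoots.

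Set per kilobase of coding sequence and summed over all listed paralogues, the 26 proteins lay between 216.6 and 822.8 CPM per kilobase in opt3-2 shoots, and between 392.1 and 1190 in WT shoots. The median over proteins was 392.5 CPM per kilobase in opt3-2 shoots and 716.3 in WT shoots, and 832.2 in opt3-2 roots and 792.5 in WT roots. The ratio of opt3-2 over WT in shoots lay between 0.511 for RPL5 and 0.691 for RPL19, with a median of 0.571, and all 26 proteins were below 1. In roots it lay between 0.909 for RPL38 and 1.36 for RPL10, with a median of 1.08. Per coding length, RPL19A (AT1G02780) was the most abundant of the 44 in opt3-2 shoots, at 582 CPM per kilobase, against 867 in WT shoots. Counts of whole genes were divided by coding length alone, and how reads were assigned is not known. Levels compared between genes, and the shares of paralogues below, are thus uncertain in size.

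The share of a protein's summed counts per coding length that each gene held was compared between genotypes as a description. In shoots 12 of the 44 genes had a lower share in every opt3-2 library than in any WT library, 8 had a higher one and 24 overlapped. In roots 19 had a lower share, 12 a higher one and 13 overlapped. Of the 29 other paralogues of these proteins, 6 had a lower share, 8 a higher one and 15 overlapped in shoots, and 4, 10 and 15 did in roots. Shares of 1 protein sum to 100%, so a lower share of a gene is a higher share of its paralogues and these counts are not independent. For 15 of the 44 the side was opposite in shoots and roots, and for 3 it was the same. The 15 include both genes of RPL4 and both of RPL24, which mirror each other. Opposite sides were also found among the other paralogues, as for AT5G52650 of RPS10 and AT5G59850 of RPS15a. AT1G66580 of RPL10 and AT4G00810 of RPP1 kept the same side.

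RPL24A held 25.0%, 22.5% and 27.3% of RPL24 levels in opt3-2 shoots, against 32.4%, 30.9% and 32.8% in WT shoots, a difference of -7.1 percentage points. RPL7D held 28.7%, 29.7% and 28.4% of RPL7 in opt3-2 shoots, against 20.9%, 22.9% and 20.95% in WT shoots, a difference of 7.36 points. RPS18C held 57.1%, 57.5% and 58.1% of RPS18 in opt3-2 shoots, against 49.85%, 54.1% and 49.6% in WT shoots. The groups were apart for these 3 genes, and in roots each differed the other way, by 1.17 points for RPL24A, -2.54 for RPL7D and -3.23 for RPS18C.

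RPS6A held 49.7%, 49.4% and 49.8% of RPS6 in opt3-2 roots, against 45.15%, 44.4% and 40.6% in WT roots. In shoots it held 27.3%, 28.7% and 32.4% in opt3-2, against 37.9%, 31.8% and 38.9% in WT. The groups were apart in roots and overlapped in shoots, where replicate 3 of opt3-2 lay above replicate 2 of WT.

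RPL10A (AT1G14320) was one of the 3 genes that differed the same way in both tissues. It held 68.7%, 67.95% and 68.85% of RPL10 in opt3-2 shoots, against 74.1%, 74.15% and 72.45% in WT shoots. In roots it held 53.6%, 56.6% and 54.4% in opt3-2, against 64.1%, 64.6% and 65.6% in WT. Its paralogue AT1G66580 held most of the balance, 30.3 ± 0.41% in opt3-2 shoots and 24.9 ± 0.94% in WT shoots, and 43.0 ± 1.73% in opt3-2 roots and 32.6 ± 0.54% in WT roots (SD, n = 3 each).

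By contrast RPL5A held 51.4%, 51.9% and 52.5% of RPL5 in opt3-2 shoots, against 52.7%, 52.1% and 52.6% in WT shoots, and the groups overlapped. In roots it held 55.5%, 56.25% and 56.35% in opt3-2, against 56.3%, 55.6% and 56.7% in WT. The RPL5 proteins are 97.7% identical, and their coding sequences 92.7%, with 44 bases as the longest identical run. Of the 44 genes, 32 share no window of 50 coding bases with a listed paralogue, and only RPL9B, RPL9C and RPL11A (AT2G42740) share over 10% of such windows.

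**Figure D4:**
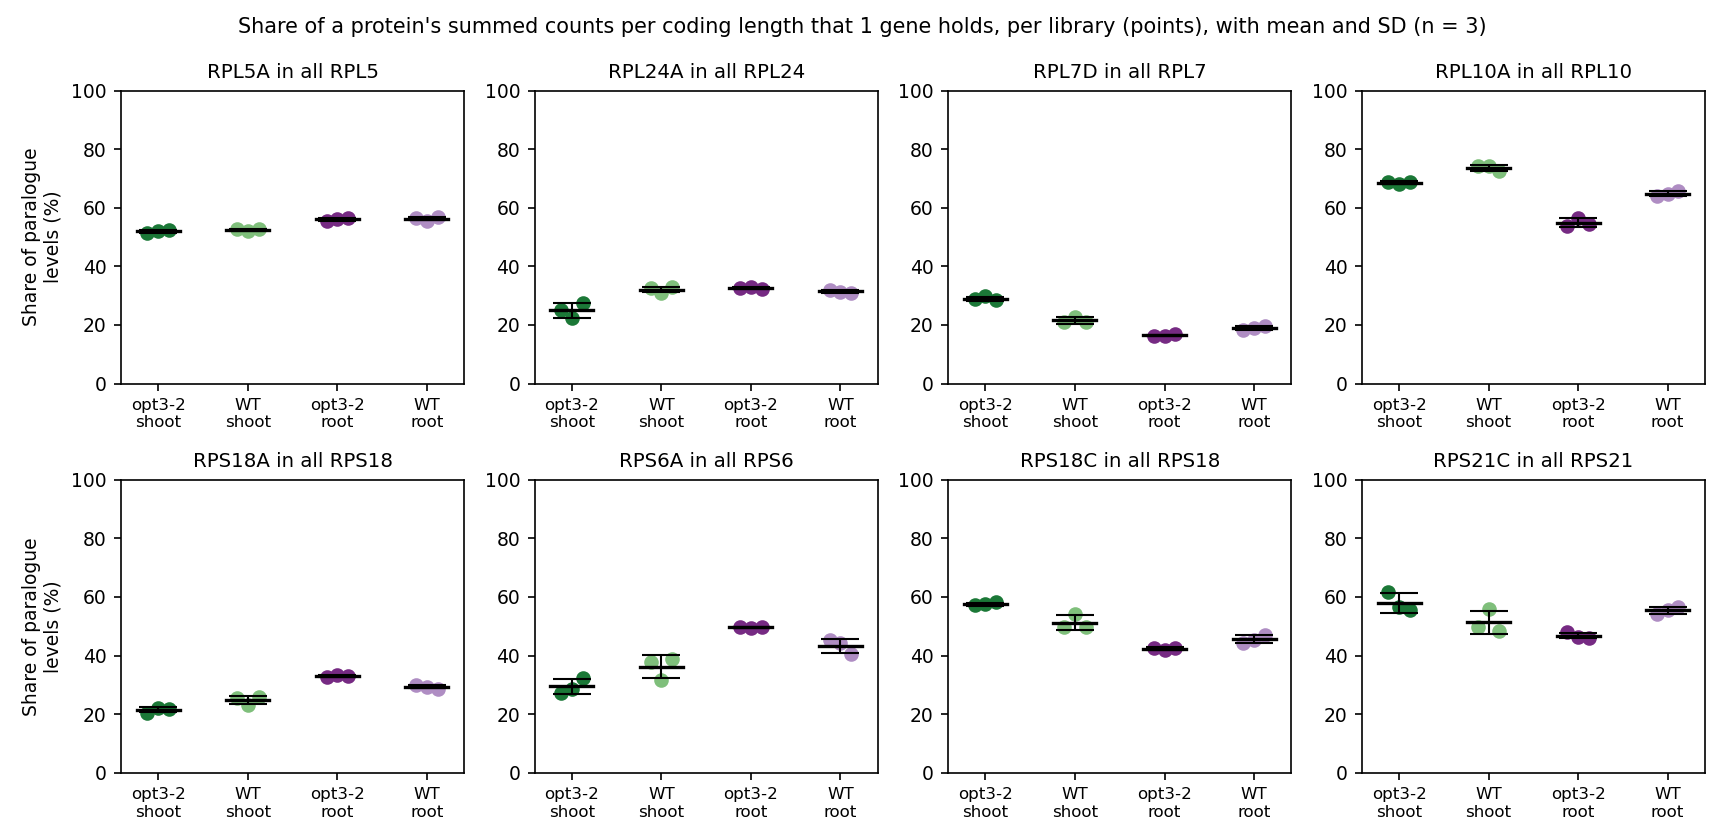
Share in percent of a protein's summed counts per coding length that 1 of its genes holds, for 8 genes, in opt3-2 shoots, WT shoots, opt3-2 roots and WT roots; points are libraries and bars are mean and SD (n = 3). RPL5A stays near 52% in both shoot groups, and RPL24A and RPL7D move by -7.1 and 7.36 percentage points in shoots.

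Genes that act with the ribosome were taken from lists drawn up by function. These lists and those named below were made with earlier results of these data known, so their tests are not independent of those results. Of 13 translation factors, 11 fell and 0 rose in opt3-2 shoots, with a median log2 fold change of -0.54. Examples were EEF1A4 (AT5G60390), which brings aminoacyl-tRNA to the ribosome, at -0.82 ± 0.077 (adjusted p = 1.09e-05, edgeR), and the RNA helicase EIF4A1 (AT3G13920) at -0.61 ± 0.064 (adjusted p = 2.23e-05, edgeR). Of 22 ribosome assembly genes 17 fell and 2 rose in shoots, with a median of -0.36. FIB2 (AT4G25630), a fibrillarin that methylates ribosomal RNA, fell by 1.99 (SE 0.128, adjusted p = 1.1e-06, edgeR), and LSG1-1 (AT2G27200), a GTPase of late 60S maturation, rose by 0.56 (SE 0.077, adjusted p = 0.000153, edgeR). In roots 3 of the translation factors rose and 0 fell, and 1 assembly gene rose and 1 fell.

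The list of TOR pathway and promoter-binding genes had 11 members, of which 4 rose and 1 fell in shoots, and 0 rose and 3 fell in roots. TOR (AT1G50030), the kinase itself, rose by 0.30 in shoots (SE 0.052, adjusted p = 0.000709, edgeR) and fell by 0.32 in roots (SE 0.052, adjusted p = 0.000607, edgeR). RAPTOR1B (AT3G08850), its partner that binds substrates, rose by 0.34 in shoots (SE 0.060, adjusted p = 0.000901, edgeR) and fell by 0.20 in roots (SE 0.060, adjusted p = 0.0227, edgeR). The 31 nuclear genes for plastid ribosomal proteins had called genes in both directions in shoots. There 6 rose and 2 fell with a median of -0.02, and in roots 0 rose and 17 fell with a median of -0.24.

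**Figure D5:**
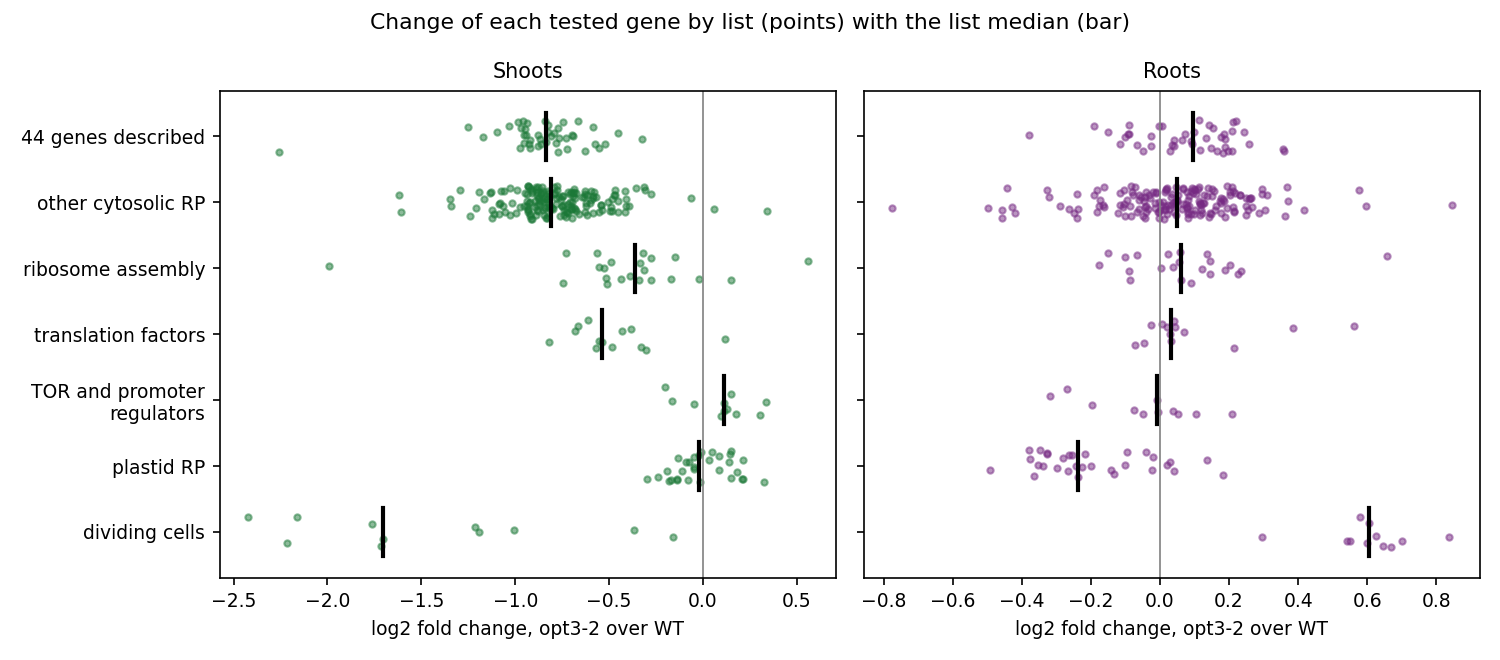
Log2 fold change of opt3-2 over WT for each tested gene (points) and the list median (bar) in shoots (left) and roots (right), by list; RP stands for ribosomal protein. In shoots the medians of both cytosolic lists are -0.84 and -0.81, that of plastid genes is -0.02 and that of genes of dividing cells is -1.70.

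Genes of dividing cells fell in opt3-2 shoots, as the ribosomal genes did, and rose in opt3-2 roots, where the ribosomal medians stayed near 0. Of 11 such genes, among them PCNA1, the DNA clamp, and MCM2 to MCM7, the replication helicase, 9 fell and 0 rose in opt3-2 shoots, with a median of -1.70. MCM3 and CYCB1;1 differed little in shoots. MCM3 had 18.6 ± 1.6 CPM in opt3-2 and 20.8 ± 0.679 CPM in WT, and CYCB1;1 had 2.2 ± 0.316 and 2.81 ± 0.615 CPM (SD, n = 3 each). The summed level of the 11 genes was 47.2 to 52.7 CPM in opt3-2 shoots and 96.1 to 123 CPM in WT shoots. In roots 10 of the 11 rose and 0 fell, with a median of 0.60, and the sums were 252 to 300.5 CPM in opt3-2 and 182 to 199.5 CPM in WT. None of the 11 was at 0 in any group mean; the lowest was PCNA1 in opt3-2 shoots, at 1.17 ± 0.148 CPM, against 6.28 ± 1.38 CPM in WT shoots (SD, n = 3 each). Their part in the ribosomal result was not tested, and in bulk samples fewer cells of a type and less RNA per cell cannot be told apart. The 50 most counted other genes also held more of the opt3-2 shoot libraries, 16.1 ± 0.668%, than of the WT shoot libraries, 14.0 ± 0.901% (SD, n = 3 each). With them left out, the 44 genes held 0.529 ± 0.0233% in opt3-2 shoots and 0.957 ± 0.0303% in WT shoots.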

How the data were processed

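Per the labels' protocols, polyA RNA from shoots and roots of cadmium-exposed plants was made into Illumina TruSeq libraries. The authors deposited raw counts per gene in 36 columns, and the submitters' processing notes name TopHat2, edgeR and the TAIR10 build. How reads were assigned to genes (tool, annotation, strand, reads that match several genes) is not given in the sources used here, so counts of near-identical paralogues are uncertain.

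The 3 technical columns of each biological replicate were summed to 12 libraries, and 0 columns lacked a sample. Genes were filtered by group, scaled by TMM and fitted together with edgeR 4.0.16 (quasi-likelihood, 8 residual degrees of freedom, R 4.3.3), with Benjamini-Hochberg adjustment over 21887 genes, 2-sided, at 0.05. On simulated data the fit recovered fewer of the genes changed by small folds than the mark first set, which was missed; the fit was then judged by the error of its estimates and its false calls, a criterion chosen after that was seen. Alternatives used DESeq2 1.42.0 and limma 3.58.1. Coding lengths, identities (Biopython 1.88) and promoters came from RefSeq TAIR10.1, matched by locus for all listed genes.

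The 44 genes and all lists were chosen with earlier results of these data known. Picked for values per library were all genes of RPL5, RPL9, RPS18, RPL24 and RPS6, and the 3 highest and 3 lowest fold changes between genotypes (2 and 2 between tissues). Not every library of each gene is printed, and the CPM of RPL9B and RPL9C are given as a sum. From each other list up to 3 called genes per direction with the smallest p could be named. Some genes that this rule picks are not reported here. Replicate numbers did not pair the samples.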

Additional observations from a re-analysis of the deposited data

Results flagged for a closer look

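The genotype difference was compared between roots and shoots by edgeR's test of the interaction (log2 difference in roots minus that in shoots), which called 24.2% of all genes above 0 and 24% below. It was above 0 for 43 of the 44 genes described, as a description, and for 162 of the 172 other cytosolic ribosomal protein genes tested. It was also above 0 for 15 of 22 ribosome assembly genes, 12 of 13 translation factors and 11 of 11 genes of dividing cells.

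Among the 60S genes of the 44, the interaction was 1.12 for RPL5A, 1.09 for RPL5B, 1.42 for RPL24A and 0.83 for RPL24B. It was 0.81 for RPL9B and 0.81 for RPL9C, whose counts are uncertain as single genes, 1.16 for RPL9D, 1.22 for RPP0B and 0.73 for RPL38B. It was 0.66 for RPL10aA, 1.09 for RPL10aC and 0.23 for RPL7D. Among the 40S genes it was 1.61 for RPS6A and 0.79 for RPS6B. It was 1.00 for RPS18A, 0.80 for RPS18B, 0.35 for RPS18C and 0.55 for RPS10B.

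Of the other cytosolic ribosomal protein genes, AT2G27710 had an interaction of 1.39 and AT3G04840 of 1.39. AT5G24510, a minor gene of RPP1, had -1.12 with an SE of 0.414. Of the assembly genes, FIB2 had 2.23, BOP1 had 0.66, BRX1-2 had 0.89, LSG1-1 had -0.51 and REIL1 had -0.33. Of the translation factors, EIF4A2 had 0.69, EEF1A4 had 1.03 and EEF1A2 had 0.71. NAC082 had 0.20, while TOR had -0.62, RAPTOR1B had -0.53 and PURALPHA had -0.38. The plastid genes PRPL31, PRPS9 and PRPL24 had -0.42, -0.54 and -0.43. In dividing cells MCM4 had 2.43, MCM5 had 2.32 and PCNA1 had 2.97.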

How the results depend on the processing

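In shoots 44 of the 44 genes stayed lower under every alternative, and the median lay between -0.92 and -0.79; with 1 library left out, 165 to 169 of the others fell. Of all genes, 4957 were called lower in shoots in the fit reported, 4461 with RLE factors and 5941 with library sizes alone. The root counts moved. With 1 library left out, 1 to 14 of the 44 were called higher and 1 to 2 lower, and 5 to 32 of the others rose and 7 to 21 fell. With RLE factors 16 of the 44 were higher in roots, with DESeq2 16 and with only the 6 root libraries 14; of all genes 4246, 4394 and 4170 were, beside 3828 in the fit reported. Of the others, 13 fell in roots with RLE, 13 with library sizes alone and 13 with DESeq2. For the interaction, 1 of the others was below 0 with library sizes alone, 1 with DESeq2, 1 with the replicate block, and 1 to 2 with 1 library left out. In WT tissues, library sizes alone called 44 of the 44 and 162 of the others higher in roots, and 0 and 1 lower (1 of the others in opt3-2). Of all genes it called 12232 higher and 5876 lower, beside 8636 and 8444 in the fit reported. With library sizes alone, RPL10aA stood at 0.19 between WT tissues, RPL9B at 0.22, RPL9C at 0.18, RPP0B at 0.27 and RPS10B at 0.29. All were reversed, since the scaling moves all genes (RPL9B and RPL9C are uncertain as single genes). The count of the 44 lower in WT roots was 1 with RLE, 1 with no filter, 1 with DESeq2, and 1 to 3 with 1 library left out. Of all genes, 8161 were lower with RLE, 8748 with no filter and 8347 with DESeq2. With only the technical columns whose suffix both genotypes hold, WT had 2 shoot libraries and 1 root library, which is assumed to vary like the other groups and gives no replicate check: 1 of the 44 was higher and 0 lower in roots (1684 of all genes higher), 6 of the others rose and 2 fell, 1 was below 0 in the interaction, and 10 of the 44 and 52 of the others were higher and 0 of the 44 lower in WT roots than in WT shoots. Without the 50 most counted other genes, the difference in share between shoots was -0.428 percentage points for the 44, beside -0.379 with them, and -1.27 for all 231, beside -1.12. Same-numbered samples did not deviate together (median r 0.024 over 18 pairs, the highest 0.129), so the replicate block pairs nothing; it moved no other count over 1.5 times. RPL7D lost its interaction call without replicate 3 of opt3-2 shoots, replicate 3 of opt3-2 roots or replicate 2 of WT roots.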
